A study of Mus musculus with 13 samples.

Results

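Cytosolic ribosomal protein genes encode the proteins of the small and large subunits of the ribosome outside mitochondria. Members were taken by name, as gene names starting with Rpl or Rps followed by a digit, p or a, without names of pseudogenes (-ps), ribosomal protein kinases (Rps6k) or Rps19bp. This rule gave 93 of the 56748 genes of the table, and it used no expression value. The low-count filter kept 86 of the 93, with 35 of the small and 51 of the large subunit. The series measured RNA of CD4+ T helper cells from the spleens of mice carrying Vk12653 multiple myeloma, a transplantable plasma cell tumour, and asked what the T-box transcription factor Eomes does in such cells during treatment with an agonist antibody to the costimulatory receptor 4-1BB.

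There were 13 libraries in 5 groups. Eomes-TKO mice treated with the 4-1BB antibody gave 2 libraries and Eomes-TKO mice given control IgG gave 3, both of cells not divided by Eomes. Eomes-GFP mice, which report Eomes by GFP, gave 3 libraries of GFP+ cells and 3 of GFP− cells after the 4-1BB antibody, and 2 libraries of undivided cells after control IgG. Both lines also carried the Foxp3-Thy1.1 reporter, and Thy1.1-positive cells, which in this reporter are regulatory T cells, were left out in the sort. In all groups NK1.1-positive cells were depleted by 50 µg of antibody on days −2 and 5, tumour cells followed on day 0, and each mouse got 20 µg of agonist or control antibody on days 10, 13 and 16 before the spleen was taken on day 18. How the Eomes-TKO line was made is not described in the labels, and the ages of the mice are not given there. GFP+ and GFP− libraries of the same number shared a library prefix, which was read as the same animal.

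The ribosome reads messenger RNA on its small subunit and joins amino acids on its large subunit, and cells make the proteins of both in matched amounts. Most of these genes are transcribed with the help of Myc, and their transcripts start with a pyrimidine tract through which the kinase complex mTORC1 and the RNA-binding protein LARP1 control their translation and stability. Resting T cells keep few ribosomes, and activated T cells are known to expand ribosome production before they divide.

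Promoter sequences from RefSeq (build GRCm38.p6, older than the build of the counts) were at hand for 68 of the 93 members. The 5 windows below show a member among the 6 largest called falls in GFP+ cells (Rpl12), the target of S6 kinases (Rps6), 2 members with searched motifs beside the start (Rpl35 and Rpl38) and the member that went against the rest (Rps27l). Each runs 5′ to 3′ on the gene's strand over the 50 bases before and the first 10 bases after the annotated start, and capitals mark 3 searched words on either strand. The first, CTTTCC, is a short run of pyrimidines. The second, CCGGAAG, is of the kind bound by ETS-family factors. The third, GGGCGG, is the GC box of the factor family that includes Sp1.
Rpl12: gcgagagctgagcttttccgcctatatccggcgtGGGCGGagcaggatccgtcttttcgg
Rps6: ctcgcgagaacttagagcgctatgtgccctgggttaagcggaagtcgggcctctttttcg
Rpl35: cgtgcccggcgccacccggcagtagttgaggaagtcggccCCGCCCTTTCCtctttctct
Rpl38: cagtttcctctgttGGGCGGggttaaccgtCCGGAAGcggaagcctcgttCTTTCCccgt
Rps27l: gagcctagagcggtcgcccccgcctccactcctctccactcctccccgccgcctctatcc
These lie at chr2:32961662-32961721 on the plus strand, chr4:86857358-86857417 on the minus strand, chr2:39005122-39005181 on the minus strand, chr11:114668530-114668589 on the plus strand and chr9:66946036-66946095 on the plus strand. In Rpl35 a reversed GC box and CTTTCC overlap by 1 base. Over windows of 250 bases before to 50 after the start, CTTTCC on either strand was in 35 of 68 members (51.5%) and in 29.3% of 27025 genes. Within 25 bases of the start and on the gene's own strand it was in 12 members (17.6%) and in 2.92% of all genes. CCGGAAG was in 26 members (38.2%) against 9.93% of all genes, and GGGCGG in 40 (58.8%) against 38.2%. A match is a description of the letters and not a bound site.

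Libraries held 6080975 to 10881146 estimated counts, and 3 counts corresponded to 0.271 to 0.468 CPM, the unit of all levels below, in which each library's counts are set to a common total and scaled by TMM. Eomes stood at 570.3, 706 and 685 CPM in GFP+ cells and at 3.54, 1.83 and 2.26 CPM in GFP− cells, on the side of the sort that the labels give. Eomes-TKO libraries had 3.59 and 8.03 CPM after the 4-1BB antibody and 1.36, 2.96 and 3.19 CPM after IgG. Eomes-GFP IgG libraries had 14.0 and 16.8 CPM. Markers of T helper cells summed to 5069 to 5706 CPM in GFP+ cells, 3721 to 3921 CPM in GFP− cells and 3219 to 4357 CPM in the undivided groups. GFP+ library 2 and Eomes-TKO IgG library 3 stood apart from the others within the family, as described with the plot of relative levels. The main count is also given without both of them. The named members that GFP+ library 2 moved most are also given without that library. The labels do not say that replicates other than the shared prefixes were separate animals, so each p-value reflects only the scatter among libraries, which may be technical.

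Summed over the 93 members, the family took 2.82, 2.47 and 2.96% of the counts in GFP+ libraries 1 to 3, against 4.83, 5.50 and 5.01% in GFP− libraries 1 to 3. Eomes-TKO cells had 4.03 and 5.64% after the 4-1BB antibody and 4.93, 5.22 and 3.14% after IgG. Undivided cells of Eomes-GFP mice given IgG had 4.23 and 4.98%. The 3 GFP+ libraries were the lowest of the 13, followed by Eomes-TKO IgG library 3, and the GFP+ and GFP− ranges did not overlap. The group means were 2.75 ± 0.251% in GFP+ and 5.11 ± 0.346% in GFP− cells (SD, n = 3 each). These are shares of each library's counts, and the amount of this RNA per cell was not measured. In these bulk samples, fewer cells with a high share and a lower share in each cell cannot be told apart. Small-subunit members held 0.713 to 0.809 of the counts of large-subunit members over the 13 libraries, with 0.713 to 0.760 in GFP+ and 0.768 to 0.809 in GFP− cells.

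**Figure D1:**
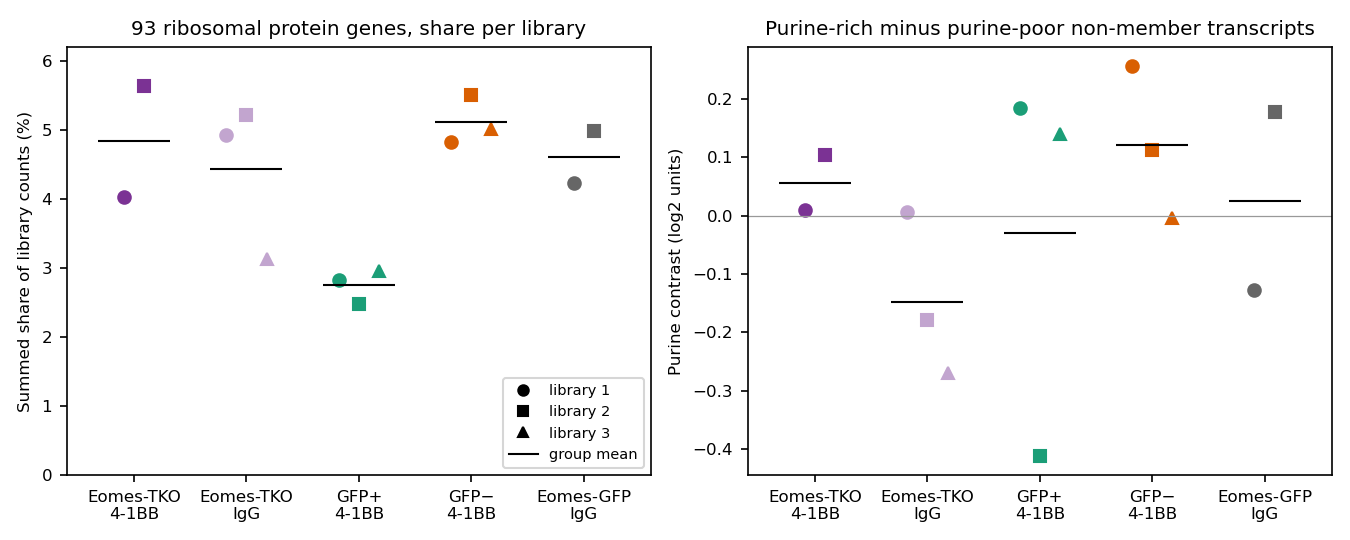
Left, share of each library's estimated counts (%) held by the 93 ribosomal protein genes, 1 symbol per library, with a bar at the group mean. The GFP+ libraries sit between 2.47% and 2.96%, below the other 10. Right, purine contrast in log2 units, the mean level of the 702 most purine-rich minus that of the 702 most purine-poor non-member transcripts, lowest in GFP+ library 2 at −0.411.

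GFP+ cells were compared with GFP− cells of the same 4-1BB-treated mice to ask how Eomes-expressing helper cells differ. Ribosomal protein genes were lower in GFP+ cells across both subunits. Of 86 tested members 51 fell (59.3%), where 16.5% of all 14059 genes tested fell, and none rose, where 20.7% of all genes rose (adjusted p below 0.05 by Benjamini-Hochberg in edgeR's quasi-likelihood model, the source of every adjusted p given here). DESeq2 and limma-voom called 58 and 51 members lower and none higher, and 59 members had an unadjusted p below 0.05 by edgeR. The median log2 fold change was −0.85, against 0.02 over all genes, and 85 of 86 values were negative, between −1.46 and 0.48. By subunit, 23 of 35 small-subunit members fell (median −0.94) and 28 of 51 large-subunit members (median −0.80). In 77 of 86 members (89.5%) every GFP+ library lay below every GFP− library, as in 23.7% of all genes. Within animals, 83, 85 and 81 members were lower in GFP+ than in GFP− cells of animals 1, 2 and 3 (median differences −0.74, −1.27 and −0.64 log2 units), and 79 were lower in all 3.

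Rps20, a small-subunit protein, had 152, 139.6 and 161 CPM in GFP+ libraries 1 to 3 and 339.9, 386 and 415 CPM in GFP− libraries 1 to 3. The groups did not overlap, the libraries of each lay close together, and the log2 fold change was −1.33 ± 0.16 SE (adjusted p = 2.00e-05). Rps19, the small-subunit protein most often mutated in Diamond-Blackfan anaemia, had 239, 229 and 246 CPM in GFP+ and 514, 657 and 609 CPM in GFP− libraries. Here too every GFP+ value was below every GFP− value (log2 fold change −1.32 ± 0.17 SE, adjusted p = 5.07e-05). Rps29 had 176, 148 and 199 CPM in GFP+ and 396, 430.5 and 441 CPM in GFP− cells. Its groups were likewise separate, with a log2 fold change of −1.27 ± 0.20 SE (adjusted p = 0.000263). Rps6, the target of S6 kinases downstream of mTORC1, had 677, 616 and 681 CPM in GFP+ and 1136, 1352 and 1126 CPM in GFP− cells, again without overlap (log2 fold change −0.87 ± 0.20 SE, adjusted p = 0.00487). Rpsa, also known as a laminin receptor at the cell surface, had 1535, 2044 and 1544 CPM in GFP+ and 2212, 2790.4 and 2636 CPM in GFP− cells, the smallest gap of those named in this paragraph (−0.58 ± 0.15 SE, adjusted p = 0.00772).

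Of the large subunit, Rpl12, a protein at the base of the stalk that recruits translation factors, had 660.2, 539 and 683 CPM in GFP+ and 1460.4, 1576 and 1451 CPM in GFP− libraries 1 to 3. The groups were far apart, with a log2 fold change of −1.25 ± 0.19 SE (adjusted p = 0.000158). Rpl31, which lies beside the exit of the peptide tunnel, had 202, 153 and 225 CPM in GFP+ and 436, 489.9 and 428 CPM in GFP− cells, without overlap (−1.22 ± 0.27 SE, adjusted p = 0.00394). Rpl5 and Rpl11 form a particle with the smallest ribosomal RNA of the large subunit, and when free they bind and inhibit Mdm2, the ubiquitin ligase of p53. Rpl5 had 509.9, 551 and 532 CPM in GFP+ and 956, 1176 and 1061 CPM in GFP− cells and fell by 1.00 ± 0.14 SE (adjusted p = 4.78e-05). Rpl11 had 279, 135 and 303 CPM in GFP+ and 424, 474 and 378 CPM in GFP− cells, with GFP+ library 2 far below the other 2, and did not pass the test (−0.83 ± 0.43 SE, adjusted p = 0.166, and −0.58, adjusted p = 0.368, without that library). Rplp0, the stalk protein often used as a PCR standard, had 1050.4, 1576 and 866 CPM in GFP+ and 1581, 1895 and 1491 CPM in GFP− cells. Its groups overlapped, through GFP+ library 2, which was the highest of the GFP+ libraries (−0.51 ± 0.22 SE, adjusted p = 0.0883), and it was not called with all libraries in 1 unblocked model. It was called in 8 of 19 alternatives, among them the animal as a block (−0.55, adjusted p = 0.0258), the replicate number as a block (adjusted p = 0.0462), DESeq2 (adjusted p = 0.0401) and the model without GFP+ library 2 (−0.82, adjusted p = 0.00618).

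**Figure D2:**
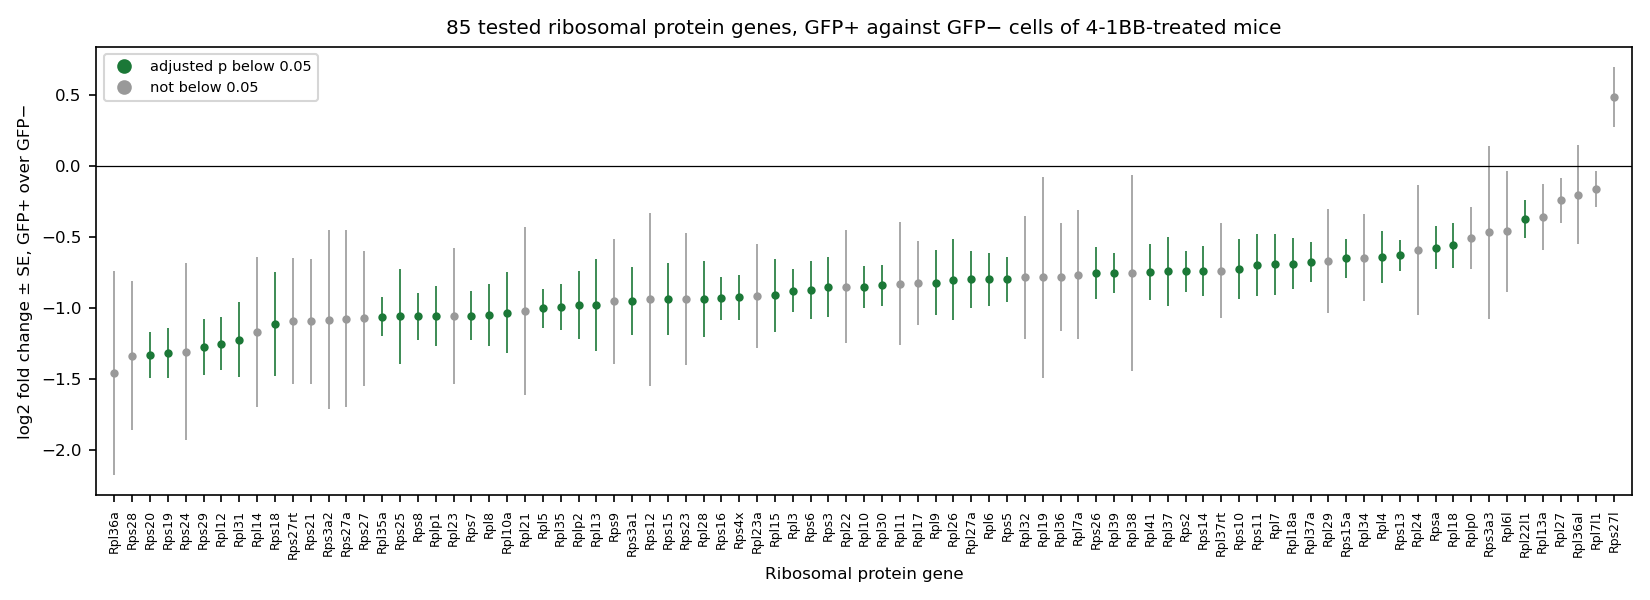
Log2 fold change, GFP+ over GFP−, with its SE for 85 of the 86 tested members in order of size, coloured by whether the adjusted p was below 0.05. Values run from −1.46 for Rpl36a to 0.48 for Rps27l, and several of the largest falls have wide errors and were not called.

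Rps18 and Rpl13a are, like Rplp0, common standards for PCR. Rps18 had 197, 124 and 229 CPM in GFP+ and 394, 454 and 346 CPM in GFP− cells, without overlap (−1.12 ± 0.37 SE, adjusted p = 0.0379). This call was lost without any 1 of the 6 libraries other than GFP+ library 3 (adjusted p between 0.0561 and 0.117) and when animal was fitted as a block (0.0717). Rpl13a had 784, 625 and 832 CPM in GFP+ and 925, 1037 and 912 CPM in GFP− cells, also without overlap, and was not called (−0.36 ± 0.23 SE, adjusted p = 0.253).

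To ask which members departed from the family, libraries were scaled on the family itself, which moved fold changes up by 0.86 log2 units. On this scale 4 of 86 members were higher in GFP+ cells, where 54.3% of all genes were, and none was lower, where 3.16% of all genes were. Unadjusted p-values below 0.05 were found for 5 higher and 0 lower members by edgeR, and DESeq2 and limma-voom called 5 and 3 higher and none lower. With the animal as a block 1 was higher, Rps27l, and leaving out GFP+ library 1 or 2 left 2 higher, and any 1 of the GFP− libraries 1 higher. Rps27l, a p53-inducible paralogue of Rps27, had 17.3, 17.4 and 17.0 CPM in GFP+ libraries 1 to 3 and 12.3, 14.3 and 10.6 CPM in GFP− libraries 1 to 3. All GFP+ libraries lay above all GFP− libraries, in the direction opposite to the rest of the family. Its log2 fold change was 0.48 ± 0.21 SE (adjusted p = 0.0891) under TMM scaling, short of the threshold, and 1.37 ± 0.31 SE (adjusted p = 0.000937) relative to the family. That second call held in each of 16 alternatives, with values between 1.21 and 1.45 (adjusted p at most 0.0111). Its parent Rps27 had 351, 153 and 425 CPM in GFP+ and 642, 747 and 566 CPM in GFP− cells, lower in each GFP+ library but with a wide spread (−1.07 ± 0.48 SE, adjusted p = 0.111, and −0.78, adjusted p = 0.248, without GFP+ library 2). Per kb of transcript in GFP− cells, Rps27 was the most abundant of 82 members with a transcript sequence, at 1889.8 CPM per kb, and Rps27l the least abundant, at 24.8 CPM per kb.

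The other 3 members higher relative to the family were Rpl7l1 (0.73, adjusted p = 0.0385), a paralogue of Rpl7, Rpl36al (0.64, adjusted p = 0.0483), a paralogue of Rpl36a, and the core large-subunit protein Rpl27 (0.68, adjusted p = 0.0448). Of 16 alternatives, the call was lost in 7 for Rpl7l1, 8 for Rpl36al and 10 for Rpl27, with adjusted p-values up to 0.144, 0.185 and 0.358. Rpl27 had 278, 379 and 257 CPM in GFP+ and 333, 401 and 347 CPM in GFP− cells, with GFP+ library 2 far above the other GFP+ libraries. Without GFP+ library 2, Rpl27 was 0.31 (adjusted p = 0.358) relative to the family. Under TMM scaling it was −0.24 (adjusted p = 0.255) with all libraries and −0.46 (adjusted p = 0.0306) without that library. Rpl7l1 had 33.4, 35 and 33.3 CPM in GFP+ and 31.7, 43 and 39.2 CPM in GFP− cells, an overlap of the groups. Its parent Rpl7 had 503, 467 and 541 CPM in GFP+ and 779, 903 and 763 CPM in GFP− cells, with no overlap (−0.69 ± 0.22 SE, adjusted p = 0.0242, lost with the animal as a block at 0.0552 and without GFP+ library 1 or 2 or GFP− library 2 at 0.0574, 0.0813 and 0.0775). Rpl36al had 73.5, 42.7 and 76.0 CPM in GFP+ and 76.1, 85.2 and 60.3 CPM in GFP− cells, which overlapped, while Rpl36a had 78.6, 22.6 and 87.6 CPM in GFP+ and 195, 211 and 114 CPM in GFP− cells (−1.46 ± 0.72 SE, adjusted p = 0.151). Without GFP+ library 2 Rpl36a was −1.09 (adjusted p = 0.312) and Rpl36al −0.012 (adjusted p = 0.985). Rpl22l1, a paralogue known to interact genetically with Rpl22 in T cell development, had 29.2, 27.9 and 32.5 CPM in GFP+ and 33.4, 38.3 and 44.5 CPM in GFP− cells. These groups were close but did not overlap, and the call (−0.38 ± 0.13 SE, adjusted p = 0.0391) was lost without GFP+ library 1 or 2 or GFP− library 2 or 3 (adjusted p between 0.0718 and 0.190). Rpl22 itself had 78.4, 33.1 and 85.2 CPM in GFP+ and 135, 128 and 93.1 CPM in GFP− cells (−0.85 ± 0.40 SE, adjusted p = 0.128, and −0.56, adjusted p = 0.266, without GFP+ library 2). The core members Rpl3 (−0.88, adjusted p = 0.000371), Rpl10 (−0.85, adjusted p = 0.000374), Rpl39 (−0.76, adjusted p = 0.000625) and Rps4x (−0.93, adjusted p = 0.000347), whose tissue-restricted paralogues were not tested, fell.

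**Figure D3:**
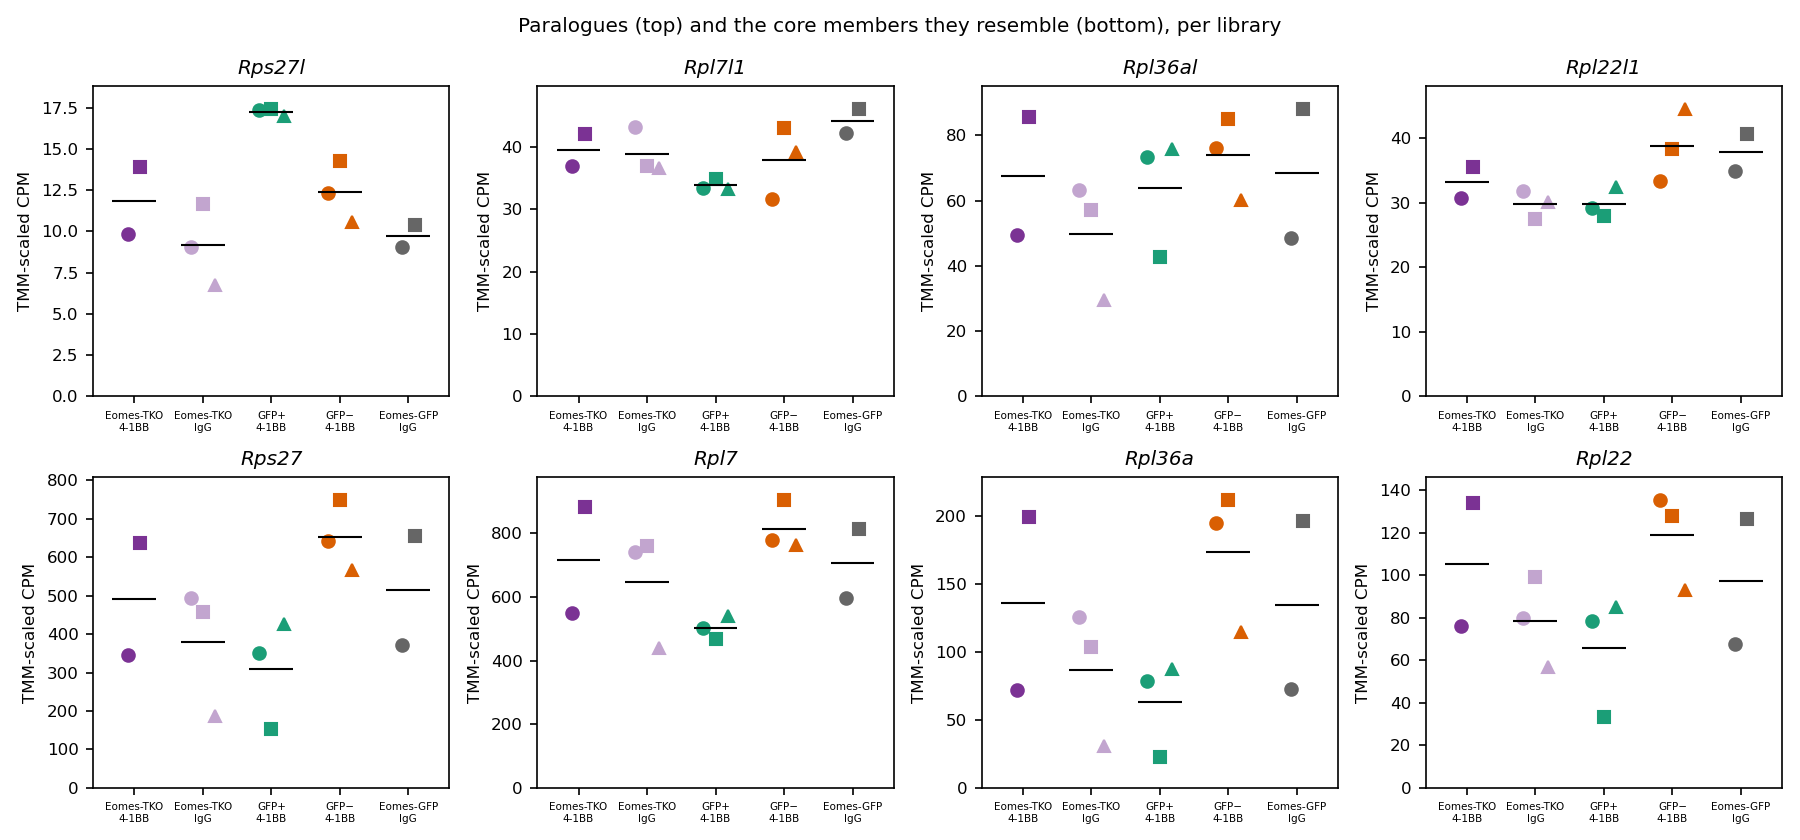
TMM-scaled CPM per library of 4 paralogues (top) and of the core members they resemble (bottom), with bars at the group means. Rps27l is highest in the 3 GFP+ libraries, at 17.0 to 17.4 CPM, whereas its parent Rps27 is lower in each GFP+ library than in each GFP− library.

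Members also varied among themselves from library to library in a way that did not follow the groups. The main axis of each member's deviation from the family median held 61.4% of this variation and set GFP+ library 2 and Eomes-TKO IgG library 3 apart from the other 11. Rps24, a small-subunit protein, had 1141, 1006 and 297 CPM in Eomes-TKO IgG libraries 1 to 3, 654, 220.5 and 735 CPM in GFP+ libraries 1 to 3 and 1425, 1452 and 1111 CPM in GFP− libraries 1 to 3. Rpl19, of the large subunit, had 367, 290.3 and 101 CPM in Eomes-TKO IgG, 357, 96.9 and 406 CPM in GFP+ and 579.8, 605 and 296 CPM in GFP− libraries. Both genes, chosen after their values were seen, dipped in the same pair of libraries, and neither was called in GFP+ against GFP− cells. Rps24 was −1.31 (adjusted p = 0.136) with GFP+ library 2 and −0.97 (adjusted p = 0.290) without it, and Rpl19 was −0.78 (adjusted p = 0.433) with it and −0.40 (adjusted p = 0.708) without it. Rplp0, Rpsa, Rps4x and Rpl27 lay at the other end of the axis.

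The same libraries differed in a property of other genes. The purine contrast, the mean log2 deviation of the 702 of 7016 non-member transcripts richest in A and G (above 54.3%) minus that of the 702 poorest (below 47.9%), was −0.411 in GFP+ library 2 and −0.270 in Eomes-TKO IgG library 3, and between −0.178 and 0.256 elsewhere. Over 82 members, the slope of a member on this contrast correlated with its purine content at r = 0.467, with GC content at −0.044 and with log10 length at −0.334. Over the 7016 non-members the first of these was 0.508. Over 86 members the slope also correlated with the log2 fold change of GFP+ over GFP− cells, at r = −0.384. These are descriptions across genes of the same libraries, and genes are not independent. Members were purine-rich, with a median of 53.2% against 50.8% over all, from 44.3% up to 59.4% in Rpl38. With the purine contrast as a covariate 51 members fell in GFP+ against GFP− cells, and without both libraries 52 fell, next to 51 with all libraries and no covariate. Fits that left out 1 library at a time, among them GFP+ library 2 alone, all called fewer, 38 to 50.

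**Figure D4:**
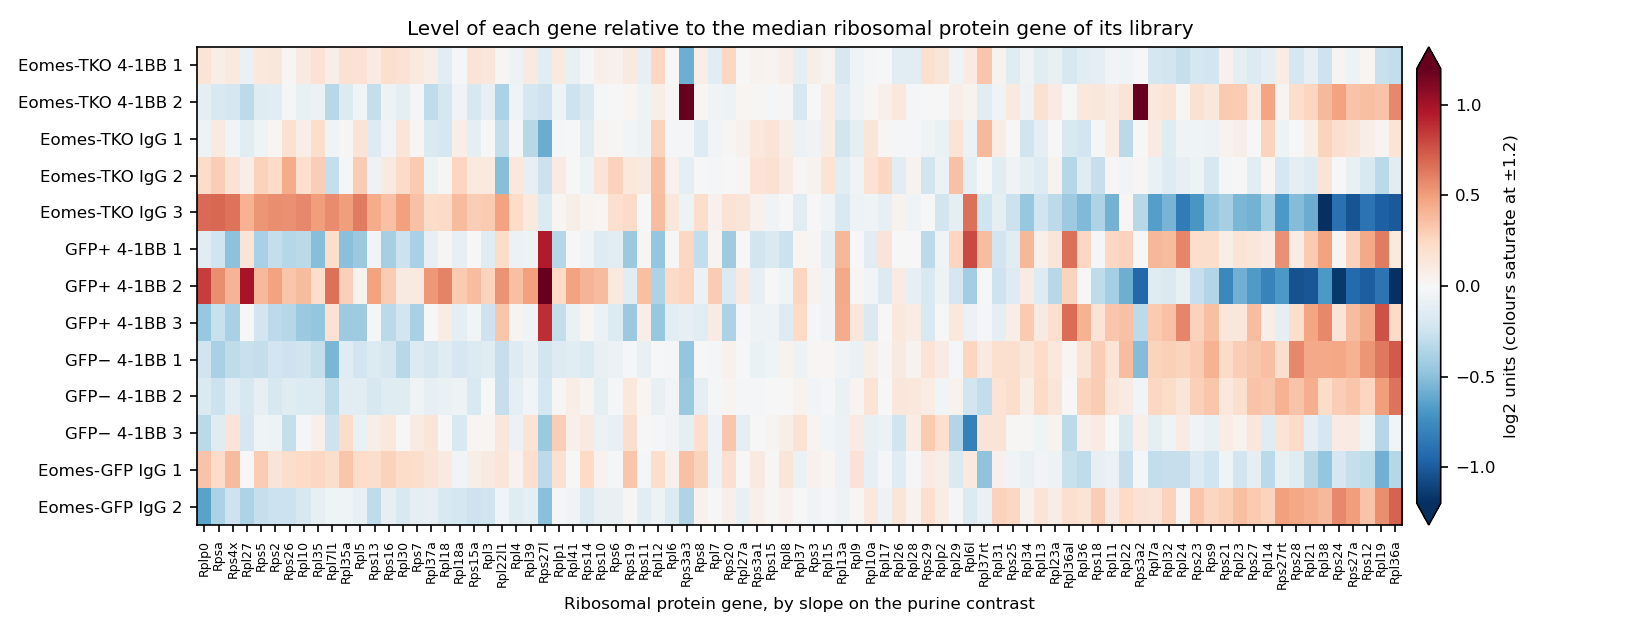
Log2 level of 85 of the 86 tested members relative to the median member of the same library, with 13 libraries as rows and members ordered by their slope on the purine contrast. GFP+ library 2 and Eomes-TKO IgG library 3 are high at the left and low at the right, and Rps27l is high in all 3 GFP+ libraries.

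Both treated fractions were then compared with undivided cells of Eomes-GFP mice given control IgG. These comparisons share libraries with the one above. Treatment and division by GFP differed together here and cannot be told apart. In GFP+ cells 30 of 86 members were lower than after IgG (34.9%, with 15.4% of all genes lower) and 1 was higher (18.8% of all genes higher), with a median of −0.63. The count was 17 without IgG library 2, where the 1 library left was assumed to vary like the other groups, and 47 with these 2 groups fitted alone. Markers of other cells also differed here. Of 6 tested myeloid markers 5 were higher in GFP+ cells, among them Lyz2 (5.30) and Cd68 (2.69), with summed levels of 49.1 to 81.6 CPM in GFP+ cells and 9.30 to 9.41 CPM after IgG. Of 2 CD8 markers, Cd8a was higher (4.94, adjusted p = 0.0118) and Cd8b1 was not called (−0.97, adjusted p = 0.104). The summed CD8 markers overlapped, at 3.46 to 9.35 CPM in GFP+ cells and 5.34 to 8.81 CPM after IgG. Klrb1c, which encodes NK1.1, was lower (−3.74, adjusted p = 1.14e-05), with NK markers summing to 0.393 to 1.29 CPM in GFP+ cells and 6.85 to 7.12 CPM after IgG. The part of these markers in the count of lower members was not tested. Small-subunit members were called lower in 17 of 35 and large-subunit members in 13 of 51. Rps19 had 239, 229 and 246 CPM in GFP+ cells and 517 and 544 CPM after IgG (−1.16 ± 0.19 SE, adjusted p = 0.000320), followed in size by Rpl12 (−1.14, adjusted p = 0.000681) and Rps20 (−1.10, adjusted p = 0.000243). The higher member was Rps27l, with 17.3, 17.4 and 17.0 CPM in GFP+ cells and 9.03 and 10.4 CPM after IgG (0.83 ± 0.24 SE, adjusted p = 0.0161), a call lost without IgG library 1 or 2 (adjusted p = 0.143 and 0.0602).

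No member passed the test in GFP− cells against cells of mice given IgG, where 0.654% of all genes were higher and 0.107% lower. None had an unadjusted p below 0.05 by edgeR, and DESeq2 and limma-voom called none. The median was 0.21, with 83 of 86 values positive. The smallest adjusted p was 0.766, for Rpl7l1, at 31.7, 43 and 39.2 CPM in GFP− cells and 42.2 and 46.1 CPM after IgG.

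Eomes-TKO cells were used to ask what treatment and genotype did without sorting by Eomes. After the 4-1BB antibody no member passed the test against IgG in the same genotype, where 0.0427% of all genes were higher and 0% lower. By edgeR 2 members had an unadjusted p below 0.05, and DESeq2 and limma-voom called none. The median log2 fold change was 0.18. Those 2 were Rps3a2 and Rps3a3, near-identical copies of Rps3a1 whose reads may be shared between copies. Rps3a2 had 8.43 and 52.9 CPM in Eomes-TKO 4-1BB libraries 1 and 2 and 10.8, 11.0 and 4.65 CPM in Eomes-TKO IgG libraries 1 to 3. Rps3a3 had 0.781 and 6.26 CPM in Eomes-TKO 4-1BB and 1.67, 1.58 and 0.797 CPM in Eomes-TKO IgG libraries. Only 4-1BB library 2 was high, and without it the log2 fold changes were −0.09 and −0.80, while without 4-1BB library 1 they were 2.56 and 2.18. Each of these leaves 1 library in the group, whose spread was then taken from the other groups. Rps3a1 had 875 and 1299 CPM in Eomes-TKO 4-1BB and 1173, 1219 and 624 CPM in Eomes-TKO IgG cells and was not called (0.11 ± 0.26 SE, adjusted p = 1).

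Under control IgG no member passed the test between Eomes-TKO and Eomes-GFP cells, where 0% of all genes were higher and 0.0142% lower. By edgeR 1 member had an unadjusted p below 0.05, DESeq2 and limma-voom called none, and the median was −0.18. That member was Rpl22l1, with 31.8, 27.4 and 30.2 CPM in Eomes-TKO and 35 and 40.6 CPM in Eomes-GFP cells (−0.35 ± 0.15 SE, adjusted p = 1). Genotype and any difference in handling between the mouse lines cannot be told apart.

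Treated Eomes-TKO cells were last set against both fractions of treated Eomes-GFP mice. Genotype and division by GFP differed together here and cannot be told apart. Against GFP− cells no member passed the test, where 0.00711% of all genes were higher and 0.0356% lower. By edgeR 2, Rps3a2 and Rps3a3, had an unadjusted p below 0.05, DESeq2 and limma-voom called none, and the median was −0.17. Against GFP+ cells 38 of 86 were higher (44.2%, with 15.7% of all genes higher) and none was lower (18.8% of all genes lower), with a median of 0.72. DESeq2 and limma-voom also called none lower, and 45 members had an unadjusted p below 0.05 by edgeR. The count of 38 was 16 without 4-1BB library 2 of the Eomes-TKO mice, a fit in which the 1 library left was assumed to vary like the other groups. In the same comparison 2 of 6 tested myeloid markers were lower in Eomes-TKO cells. Higher were 1 of 2 tested plasma cell and myeloma markers, the 1 tested NK marker, the 1 tested B cell marker, Foxp3 (2.18) and 1 of 2 CD8 markers. Rpl12 had 1308 and 1767 CPM in Eomes-TKO 4-1BB cells and 660.2, 539 and 683 CPM in GFP+ cells (1.29 ± 0.20 SE, adjusted p = 0.000263), without overlap. Rps3a2 (2.61, adjusted p = 0.0113) and Rps3a3 (1.79, adjusted p = 0.0376) had the largest values and rested on that same library, without which they were 0.73 and −0.41. Rps3a3 was also not called without any 1 of the GFP+ libraries (adjusted p between 0.0565 and 0.0854).

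Other genes of the ribosome pathway were then followed in GFP+ against GFP− cells, where 16.5% of all genes fell and 20.7% rose. Myc, the transcription factor of ribosome production, had 21.8, 23.2 and 26.1 CPM in GFP+ and 78.7, 89.9 and 98.0 CPM in GFP− cells, without overlap (−1.91 ± 0.23 SE, adjusted p = 3.16e-05). Among 26 tested genes of mTORC1, LARP1 and Myc, 11 fell (42.3%) and 4 rose (15.4%). The translational repressor Eif4ebp1 (−1.70) and the mTOR inhibitor Deptor (−2.10) fell, and the Myc antagonists Mxi1 (0.84) and Mxd4 (0.62) rose. Nucleolar assembly factors fell in 32 of 44 (72.7%) and rose in none (median −0.64), led by Wdr12 (−1.63), Gnl3 (−1.21) and Grwd1 (−1.17). RNA polymerase I, which transcribes ribosomal RNA, and its factors fell in 4 of 15 (26.7%) and rose in none, a share not far above that of all genes, with its largest subunit Polr1a at −1.17 ± 0.10 SE (adjusted p = 6.03e-07) and Polr1b at −0.96. Host genes of small nucleolar RNAs fell in 10 of 14 (71.4%), led by Snhg15 (−1.57), Snhg12 (−1.33) and Epb41l4aos (−1.32).

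Translation factors and related genes whose messages carry the same pyrimidine tract fell in 8 of 25 (32%, against 16.5% of all genes) and rose in none (median −0.32), among them Npm1 (−0.88), Eef1g (−0.72) and Tpt1 (−0.71). Rack1, a ribosomal protein outside the naming rule, fell (−0.57, adjusted p = 0.00951), while Fau (−0.43, adjusted p = 0.633), which encodes a ribosomal protein fused to a ubiquitin-like protein, was not called. Proteins of the mitochondrial ribosome had a median of −0.01, with 5 of 78 higher (6.41%, against 20.7% of all genes) and 4 lower (5.13%, against 16.5%). The p53 and stress list had 5 of 9 higher (55.6%) and 1 lower (11.1%). Cdkn1a, a p53 target that halts the cell cycle, had 10.3, 29.98 and 7.84 CPM in GFP+ and 1.83, 1.46 and 1.17 CPM in GFP− cells (3.43 ± 0.54 SE, adjusted p = 0.000196). Phlda3 (2.61) and Sesn2 (1.19), also p53 targets, rose, Trp53 itself fell (−0.33, adjusted p = 0.0397), and Mdm2 was not called (0.16, adjusted p = 0.176). Proliferation genes rose in 20 of 21 (95.2%, median 1.60) and genes of naive and quiescent T cells fell in 12 of 15 (80%, median −1.32) in the same comparison.

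**Figure D5:**
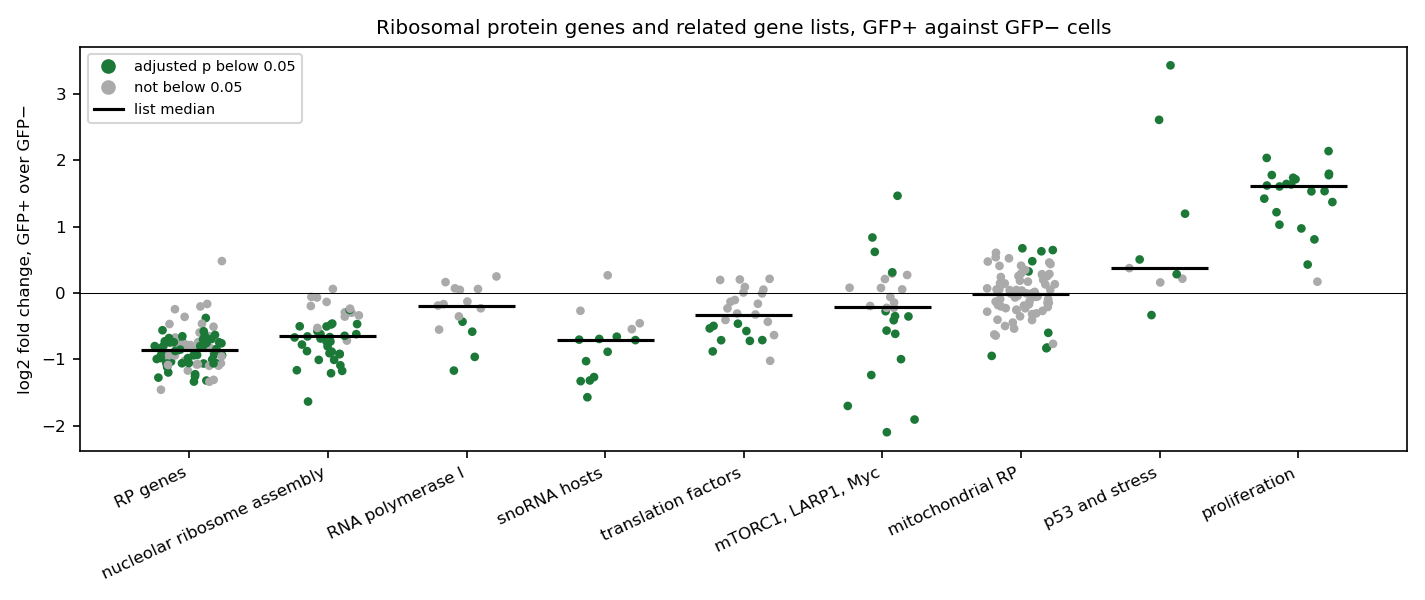
Log2 fold change, GFP+ over GFP−, of each tested gene of 9 lists, coloured by whether the adjusted p was below 0.05, with a bar at the list median. Ribosomal protein genes (−0.85), nucleolar assembly factors (−0.64) and snoRNA host genes (−0.71) have negative medians, mitochondrial ribosomal proteins lie at −0.01 and proliferation genes at 1.60.

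Other measures moved with GFP+ cells too. Of 8 myeloid markers, 6 were tested and 2, Cd68 and Itgam, were higher in GFP+ than in GFP− cells. Their summed level was 49.1 to 81.6 CPM in GFP+, 17.4 to 34.6 CPM in GFP− and 9.30 to 9.41 CPM in Eomes-GFP IgG cells, with no marker at 0 in all libraries of GFP+ or GFP− cells and Cd14, S100a8 and S100a9 at 0 after IgG. Plasma cell and myeloma markers summed to 49.2 to 65.6 CPM in GFP+ and 55.3 to 62.8 CPM in GFP− cells. Of 6 such markers 2 were tested and neither was called, Xbp1 (−0.04, adjusted p = 0.813) and Jchain (1.61, adjusted p = 0.387). Mzb1 and Tnfrsf17 were at 0 in all GFP+ libraries, and Tnfrsf17 in all GFP− libraries. The other markers had counts in at least 1 library of each fraction. Markers of other cells at low levels fell, with Cd79a of B cells at −2.27 (adjusted p = 0.0207), Klrb1c of NK cells at −1.53 (0.0185), Cd8b1 of CD8 T cells at −1.09 (0.0445) and Foxp3 of regulatory T cells at −1.50 (0.0432). Foxp3 stood at 0.393 to 0.554 CPM in GFP+ and 1.10 to 1.95 CPM in GFP− cells, near the level of 3 counts, and Cd8a was not called (0.59). Mitochondrially encoded RNA took 0.838 to 1.67% of counts in GFP+ and 1.44 to 2.21% in GFP− cells. The part of any of these in the fall of ribosomal protein genes was not tested.

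Promoter words were also set beside the calls in GFP+ against GFP− cells. Of the tested members with a window, 38 had fallen and 25 were not called. CCGGAAG was in 19 of the 38 and in 6 of the 25, CTTTCC in 17 and 16, and GGGCGG in 24 and 15. The median log2 fold change was −0.80 with CCGGAAG and −0.93 without it. It was −0.80 with and −0.90 without CTTTCC, and −0.80 with and −0.90 without GGGCGG. These counts and medians were not tested.

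The 7 members that the filter removed were near or at 0. Rpl10l and Rps12l1 had no count in any library, which allows up to 0.271 to 0.468 CPM per library. Rpl3l, known from muscle, and Rps23rg1 had 1 count each in all libraries together, Rpl32l had 6, Rpl39l, known from testis, had 31 in 8 libraries and Rps4l had 61 in 12 libraries. Named pseudogene copies of members, 322 rows, took 0.0214 to 0.0480% of counts. Of their 56 tested rows 15 fell (26.8%, against 16.5% of all genes) and none rose in GFP+ against GFP− cells (median −0.83), and their reads may come from the members themselves. Rps3a2, Rps3a3, Rps27rt, Rpl37rt and Rpl6l are likewise uncertain, since they resemble other members closely.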

How the data were processed

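RNA was measured in 13 libraries of sorted CD4+ T helper cells. The authors deposited estimated counts per gene for 47 library columns, 34 of which were not used here because their names matched no label. Per the labels' protocols, libraries were made from 11 ng of RNA after ribosomal RNA depletion. Salmon 1.5.2, the STAR aligner 2.7.10a, the trimming tools Trim Galore 0.6.7 with cutadapt 3.4, and the build GRCm39 are named in the submitters' notes on processing. Between 6.25% and 7.33% of values per library were not whole, and counts were rounded. Intervals or floors from counts cover counting error only.

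Differences were tested two-sided with edgeR 4.0.16 in R 4.3.3 (TMM, filterByExpr keeping 14059 genes, robust quasi-likelihood, Benjamini-Hochberg at 0.05 over all genes tested), with 13 libraries and 5 groups in 1 model and 8 residual degrees of freedom. SE is the absolute log2 fold change over the square root of F. DESeq2 1.42.0 and limma-voom (limma 3.58.1) were alternatives, with other scalings, filters, blocks, groups alone and each library left out, and the script was tested on simulated data. Relative to the family, libraries were scaled by median-of-ratios over tested members. Purine content came from GENCODE M21 transcripts and promoters from RefSeq, both on GRCm38. Deviations of GFP+ and GFP− libraries sharing a prefix, read as the same animal, correlated at 0.317, 0.112 and 0.0610, and other pairs between −0.255 and 0.155.

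The members and lists were chosen with earlier results of these data known. Named were up to 6 called members per direction by fold change in GFP+ against GFP− cells, under TMM and relative to the family, up to 3 in other comparisons, tested paralogues and their parents, PCR standards, Rps6, Rpl5, Rpl11, Rpsa, and up to 3 genes per list and direction. Rps3a1, Rps24, Rpl19, Rpl35, Rpl38, Fau, Mdm2, Rps27rt, Rpl37rt and Rpl6l were named after their values were seen. Values of 1 member and of some other genes are not reported here, though counts and medians include them. Replicate libraries differed by more than counting noise in every group (chi-square per degree of freedom 7.74 to 29.2).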

Additional observations from a re-analysis of the deposited data

How the results depend on the processing

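Of 1144 values recomputed under an alternative, 1027 kept their direction and side of the threshold. The 51 members lower in GFP+ than in GFP− cells became 79 without the count filter, 67 with both groups alone, 44 with the animal as a block and 46 with the replicate number as a block, which also called 1 member (Rps27l) higher. Leaving out 1 library gave 38 to 50 lower and 0 higher. Without the count filter, GFP+ against IgG had 76 lower, GFP− against IgG 1 higher, Eomes-TKO 4-1BB against Eomes-TKO IgG 9 higher, Eomes-TKO IgG against Eomes-GFP IgG 4 lower, Eomes-TKO 4-1BB 1 higher against GFP− and 76 higher against GFP+. In the unfiltered fit adjusted p-values could be far smaller at nearly the same fold change, so its counts are not stronger evidence. Rpl36a in GFP+ against GFP− was −1.48 (adjusted p = 9.21e-29) without the filter and −1.46 (adjusted p = 0.151) with it. Fitted alone, GFP+ against IgG had 47 lower. The replicate block gave 1 member lower in Eomes-TKO 4-1BB against GFP+. Relative to the family, 2 were higher without the filter, 2 with the replicate number as a block and 1 with the animal as a block. On that scale 1 was lower with summed member counts, 1 with both groups alone, 3 with the purine covariate and 2 without GFP+ library 2 and Eomes-TKO IgG library 3. Those last 2 alternatives were chosen after seeing the data. Leaving out 1 library gave 1 to 3 higher and 0 lower relative to the family, 17 to 26 lower and 0 to 1 higher for GFP+ against IgG, 16 to 40 higher for Eomes-TKO 4-1BB against GFP+, and 0 to 1 higher for Eomes-TKO 4-1BB against IgG. Reversed were Rpl36al (0.033 with the purine covariate, GFP+ against GFP−) and, without Eomes-TKO 4-1BB library 2, Rps3a2 (−0.086 against IgG, −0.36 against GFP−) and Rps3a3 (−0.80 against IgG, −0.88 against GFP−, −0.41 against GFP+). Without Eomes-TKO 4-1BB library 1, Rps3a2 was 2.56 against IgG and 2.28 against GFP−, and Rps3a3 was 2.18 against IgG, 2.10 against GFP− and 2.60 against GFP+. Where 1 library was left in a group, it was assumed to vary like the other groups. Except where fewer samples or genes entered by construction, the cause was not tested. The block changed no other count beyond 1.5 times. At these depths, values of genes near 3 counts per library are imprecise.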
